A study of Homo sapiens with 16 samples.

Results

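HCT116 PIK3CA WT, called HCT116 WT below, is a derivative of the human colorectal carcinoma line HCT116. The mutant copy of PIK3CA, which encodes the catalytic alpha subunit of PI3K, was knocked out in it, so that the wild-type copy was left. Its response to 24 h without glutamine was measured on 4 of the 16 arrays of the study, chosen by their titles: 2 biological replicates in medium with glutamine and 2 in medium without it. All groups were grown in DMEM with 10% dialyzed fetal bovine serum, which is depleted of free amino acids, and total RNA was hybridised to an Affymetrix whole-transcript array with 1 intensity per probe set.

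The other 12 arrays hold 3 more derivatives under the same pair of media, 2 arrays a group. HCT116 Mut kept only the mutant PIK3CA copy because its wild-type copy was knocked out, and DLD1 WT and DLD1 Mut were made in the same way from DLD1, another human colorectal carcinoma line. HCT116 Mut shares the parental line with HCT116 WT, and DLD1 WT shares the kind of PIK3CA allele. The response of HCT116 WT was compared with these 2 derivatives, and DLD1 Mut was not tested against it. The labels name 1 derivative per genotype, so that an effect of the allele cannot be told apart from other differences between these derivatives. PIK3CA had no probe set of its own here, and the allele labels were therefore not checked in the data.

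Glutamine gives nitrogen to the purine and pyrimidine rings, to asparagine and to hexosamines, and carbon to the tricarboxylic acid cycle. Cells short of an amino acid accumulate uncharged tRNA, which activates the kinase GCN2; phosphorylated eIF2-alpha then lowers general translation but raises translation of the transcription factor ATF4, which turns on amino acid synthesis and transport genes, tRNA synthetases and the factor CHOP. The growth kinase mTORC1, the sterol-sensing SREBP factors, and the E2F and MuvB complexes that time S phase and mitosis are further points at which nutrient supply and gene expression are known to meet.

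The 4 arrays had medians from 3.59 to 3.65 on the linear scale, and replicate arrays correlated at r = 0.991 with glutamine and 0.990 without it, across genes. Among 15 colon epithelial markers the summed intensity was 4655 to 4723 with glutamine and 5743 to 5886 without it, and 4 rose: CDH1, CLDN4, KRT19 and CDX1, the last with an adjusted p of up to 0.201 when an array was left out. CDX1 was dim, at 5.73 and 4.33 with glutamine and 7.67 and 8.86 without it. The 8 fibroblast markers summed to 28.5 to 28.7 and 26.7 to 27.3, and the 7 endothelial markers to 23.7 to 25.5 and 23.8 to 26.6, near the array median per probe set. The 9 leukocyte markers summed to 125.2 to 132 and 224.5 to 241.2, of which CD68, a lysosomal membrane protein that is not restricted to leukocytes, made up 105 and 111 with glutamine and 219 and 201 without it. PTPRC and CD3E, which define leukocytes, were among the genes too dim to test.

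Of 15676 genes tested, 3191 (20.4%) changed at an adjusted p under 0.05: 1611 (10.3%) rose and 1580 (10.1%) fell. At least 2-fold changes were called for 567 genes (3.62%), of which 265 (1.69%) rose and 302 (1.93%) fell. The arrays of the 2 media did not overlap for 9011 genes (57.5%), so non-overlap by itself marks little with 2 arrays a group. The median log2 change over all tested genes was 0.01. The number of arrays limits the precision: 1435 of the 3191 calls (45%) held when each of the 4 arrays was left out in turn, and the count fell to 2054 to 2131 with 1 array fewer. Counts of list members below are to be read beside the 10.3% that rose and 10.1% that fell over all tested genes. The lists and their members were chosen with earlier results of these data known. Their counts, also those of differences between derivatives, are therefore descriptions and not tests of the lists. The plot of 20 gene lists shows the members' changes together.

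**Figure D1:**
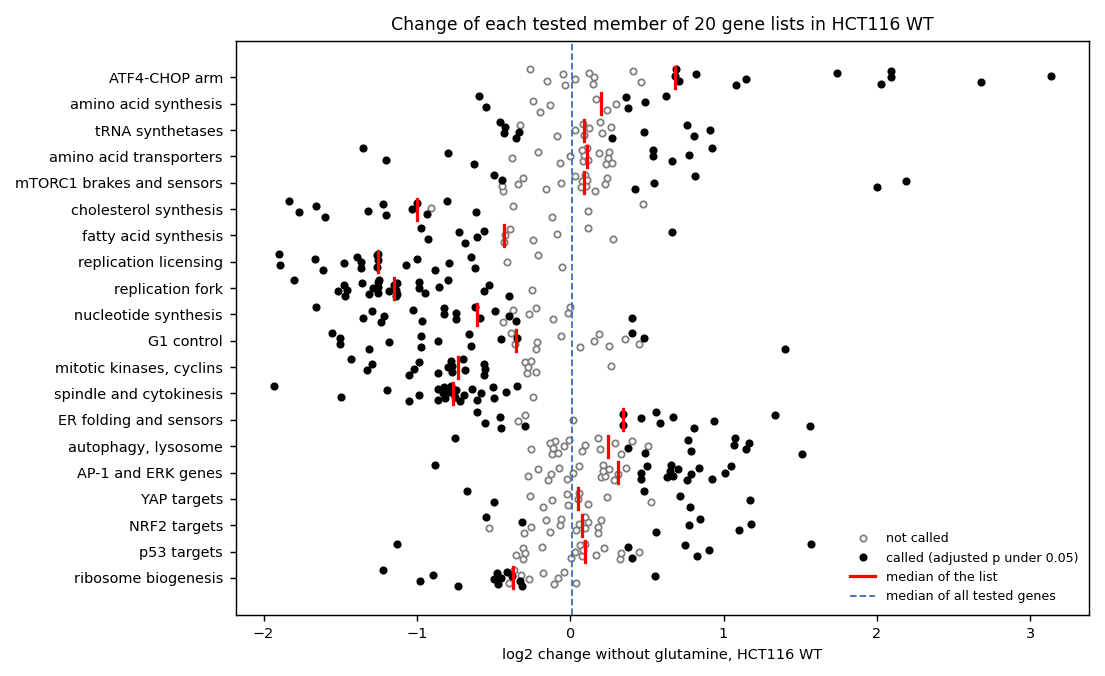
Log2 change without glutamine in HCT116 WT (horizontal axis) for each tested member of 20 gene lists (rows). Filled points were called at an adjusted p under 0.05, open points were not, red bars are list medians and the dashed line is the median of all tested genes. The medians of cholesterol synthesis (-1.0), replication licensing (-1.26) and the replication fork (-1.15) lie farthest to the left, and that of the ATF4-CHOP arm (0.69) farthest to the right.

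Genes of the ATF4-CHOP arm were among the strongest rises. Of 22 tested regulators and feedback genes of this arm, 12 rose and none fell, with a median log2 change of 0.69 beside 0.01 over all genes. DDIT3, which encodes CHOP, read 9.10 and 10.1 with glutamine and 76.6 and 92.4 without it. Both arrays without glutamine were far above both with it (log2 change 3.13 ± 0.33, SE of the fit, n = 2 arrays a group, 8.77-fold, adjusted p = 0.000112). TRIB3, a pseudokinase that restrains ATF4, read 51.1 and 44.9 and then 193 and 197, a 4.08-fold rise (log2 2.03 ± 0.10, adjusted p = 4.88e-06). PPP1R15A, the subunit that brings a phosphatase to eIF2-alpha and so restores translation, read 68.7 and 69.1 with glutamine and 278 and 311 without it (log2 2.09 ± 0.11, adjusted p = 4.88e-06). In both genes the arrays of the 2 media lay apart. ATF4 itself, which is controlled mostly at translation, read 715 and 789 with glutamine and 1275 and 1146 without it (log2 0.69 ± 0.10, adjusted p = 0.000877). Its C/EBP partners CEBPB and CEBPG rose 2.12-fold and 2.21-fold, and the repressor BHLHE41 rose 4.27-fold. The stress factor ATF3 read 15 and 20.5 with glutamine and 27.5 and 35 without it; its adjusted p of 0.0497 went to as much as 0.259 with an array left out. The genes of the eIF2-alpha kinases, EIF2AK1 to EIF2AK4, were not called, with log2 changes of -0.15, -0.04, 0.12 and 0.03.

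CHAC1, which degrades glutathione and is a CHOP target, read 132 and 113 with glutamine and 422 and 393 without it in HCT116 WT. The 2 media were well apart (log2 1.74 ± 0.12, 3.33-fold, adjusted p = 1.18e-05). In HCT116 Mut the same probe set read 324 and 364 and then 274 and 224, starting above HCT116 WT and ending below it. The response of HCT116 WT was higher by 2.21 ± 0.17 on the log2 scale (adjusted p of the difference = 0.000227). In DLD1 WT it went from 88.6 and 77.8 to 513 and 522, and the response of HCT116 WT was lower (difference -0.90 ± 0.17, adjusted p = 0.0099). TRIB3 had a difference of 0.93 ± 0.15 against HCT116 Mut and 0.11 ± 0.15 against DLD1 WT (adjusted p = 0.00438 and 0.708); with the HCT116 arrays fitted alone the first became 0.0576. Over the whole table, differences of response were called for 1487 genes (9.49%) against HCT116 Mut and 1577 (10.1%) against DLD1 WT. Both comparisons use the same 4 arrays of HCT116 WT and are therefore not independent. Within the ATF4-CHOP list, 5 of 22 genes responded higher and 2 lower than in HCT116 Mut; over all genes these shares were 4.74% and 4.75%. The 5 became 2 without the first HCT116 WT array with glutamine, and 3 without any other of the 8 arrays but the second of HCT116 Mut with glutamine; the count was 2 with the HCT116 arrays fitted alone. Against DLD1 WT 1 was higher and 6 were lower, beside 4.56% and 5.5% over all genes.

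**Figure D2:**
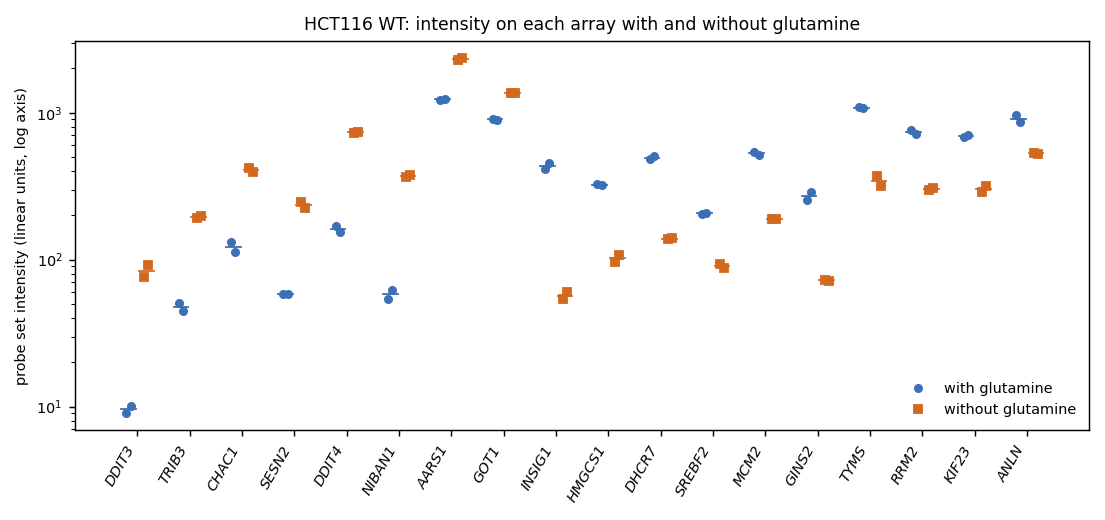
Intensity on each of the 4 HCT116 WT arrays (vertical log axis, linear intensity units) for 18 genes named in the text, with glutamine in circles and without it in squares; bars are geometric means of the 2 arrays. DDIT3 goes from 9.10 and 10.1 to 76.6 and 92.4 and INSIG1 from 414 and 457 to 53.7 and 60.5, and in none of the 18 genes do the 2 media overlap.

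The promoters of CHAC1 and ASNS are printed because both hold the core of the amino acid response element, the composite site bound by ATF4 with a C/EBP partner. Each is the 250 bases before the start of transcription in RefSeq's GRCh38.p14 annotation, with the match to TGATGNAA (N is any base, either strand) in capitals.
CHAC1, chr15:40953221-40953470, plus strand: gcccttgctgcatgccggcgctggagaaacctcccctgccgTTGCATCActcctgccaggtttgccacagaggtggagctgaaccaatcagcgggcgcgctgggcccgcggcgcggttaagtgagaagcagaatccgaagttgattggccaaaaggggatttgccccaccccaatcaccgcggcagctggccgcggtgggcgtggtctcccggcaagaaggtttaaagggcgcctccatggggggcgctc
ASNS, chr7:97872409-97872658, minus strand: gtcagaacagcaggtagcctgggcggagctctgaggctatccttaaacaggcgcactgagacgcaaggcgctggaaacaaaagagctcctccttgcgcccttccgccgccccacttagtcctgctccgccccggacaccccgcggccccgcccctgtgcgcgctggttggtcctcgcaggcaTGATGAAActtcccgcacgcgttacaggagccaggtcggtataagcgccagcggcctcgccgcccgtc
The match lies 209 to 202 bases before the start in CHAC1 and 68 to 61 bases before it in ASNS. In windows of 300 bases, 250 before the start and 50 after it, 3 of the 19 ATF4-CHOP promoters found (15.8%) and 2 of 9 amino acid synthesis promoters (22.2%) held a match, against 227 of 11735 promoters of tested genes (1.93%). Among genes that rose at least 2-fold a match occurred in 6 of 202 (2.97%), and among those that fell as much in 3 of 231 (1.3%). The higher shares thus rest on few promoters of chosen lists. A match is a description of the letters and was not tested for binding.

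Genes that restrain mTORC1 or link it to nutrient supply, not all of them inhibitors, split into a few strong rises and many small values. Of 22 tested negative regulators and nutrient sensors, 5 rose and 2 fell, with a median of 0.09; 3 rose without the second array with glutamine or the second without it. DDIT4, which encodes REDD1 and releases the TSC complex, read 169 and 155 with glutamine and 730.0 and 745 without it, 4.56-fold higher without glutamine (log2 2.19 ± 0.13, adjusted p = 5.46e-06). SESN2, the leucine-sensing inhibitor of GATOR2, read 58.3 and 58.8 with glutamine and 245 and 225 without it (log2 2.0 ± 0.12, adjusted p = 5.46e-06). Both genes were separated by medium on all 4 arrays. FNIP1, a partner of folliculin, rose 1.46-fold. RRAGD, a Rag GTPase, rose 1.76-fold, while TSC1 and FNIP2 fell by 0.44 and 0.50 on the log2 scale, but the adjusted p of these 3 went up to 0.165, 0.117 and 0.145 with an array left out. The arginine sensor CASTOR1 (-0.06) and the GATOR1 subunits DEPDC5 (-0.16) and NPRL2 (0.16) were not called.

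The response of DDIT4 lay between those of HCT116 Mut and DLD1 WT. HCT116 Mut arrays read 485 and 479.7 with glutamine and 694 and 619 without it, and DLD1 WT arrays 31.2 and 32.4 with glutamine and 536 and 515 without it. All 3 derivatives thus ended between 515 and 745 from unlike starting values. The response of HCT116 WT was higher than that of HCT116 Mut by 1.75 ± 0.19 (adjusted p = 0.000662) and lower than that of DLD1 WT (difference -1.86 ± 0.19, adjusted p = 0.000591). NIBAN1, a protein induced by ER and amino acid stress, went from 54.4 and 61.8 to 364 and 379 in HCT116 WT and from 9.26 and 15.1 to 354 and 332 in DLD1 WT. Its rise in HCT116 WT (2.68 ± 0.23) was smaller than in DLD1 WT (difference -2.18 ± 0.32, adjusted p = 0.00274). SESN2 also rose less than in DLD1 WT, with a difference of -1.11 ± 0.17 (adjusted p = 0.00332), and gave 0.16 ± 0.17 against HCT116 Mut (adjusted p = 0.629).

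Asparagine and serine synthesis genes moved little in HCT116 WT. Of 12 tested enzymes of asparagine, serine, glycine and one-carbon synthesis, 4 rose and 2 fell, with a median of 0.20. ASNS, which makes asparagine with glutamine as nitrogen donor, read 188 and 179.9 with glutamine and 277 and 240.4 without it, a 1.41-fold rise without overlap (log2 0.49 ± 0.10, adjusted p = 0.00776, up to 0.0647 with an array left out). PHGDH, the first enzyme of serine synthesis, read 268 and 277 with glutamine and 359 and 349 without it (log2 0.38 ± 0.09, adjusted p = 0.0154, up to 0.0832 with an array left out). HCT116 Mut and DLD1 WT moved further, in opposite directions. In HCT116 Mut the ASNS arrays went from 287 and 317 to 186 and 183 and the PHGDH arrays from 462 and 453 to 191 and 195, both downward. In DLD1 WT they went from 69 and 75.7 to 336 and 368 and from 187 and 157 to 565 and 594. In DLD1 Mut they went from 140 and 125 to 296 and 294 and from 391 and 385 to 522 and 542. The response of HCT116 WT differed from that of HCT116 Mut by 1.20 ± 0.15 for ASNS and 1.62 ± 0.13 for PHGDH (adjusted p = 0.0013 and 0.000227). Against DLD1 WT the differences were -1.79 ± 0.15 and -1.38 ± 0.13 (adjusted p = 0.000278 and 0.000451). For 7 of the 12 enzymes the response was higher than in HCT116 Mut (4.74% of all genes were), 4 with the HCT116 arrays fitted alone, and for 7 it was lower than in DLD1 WT (5.5% of all genes).

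The list medians of these 3 follow the same order: -0.70 in HCT116 Mut, 0.20 in HCT116 WT and 0.56 in DLD1 WT. The median was -0.03 in DLD1 Mut, whose response was not tested against that of HCT116 WT. CTH, the last enzyme of cysteine synthesis, rose by 0.63 and the mitochondrial folate enzyme MTHFD2 by 0.37 on the log2 scale, with adjusted p up to 0.204 and 0.0711 when an array was left out. The cytosolic folate enzymes went the other way. SHMT1 read 129 and 103 with glutamine and 75.2 and 77.4 without it (log2 -0.59 ± 0.12, adjusted p = 0.00459), and MTHFD1 read 858 and 807 with glutamine and 560.4 and 578 without it (log2 -0.55 ± 0.11, adjusted p = 0.0055). Both fell without overlap.

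Of the enzymes that use or make glutamine, glutamate and proline, 12 were tested. GFPT1, the glutamine-using entry to hexosamine synthesis, read 672 and 618 with glutamine and 1025 and 1043 without it and rose 1.6-fold (adjusted p = 0.000375). The 2 aspartate aminotransferases moved apart: cytosolic GOT1 went from 906 and 897 to 1361 and 1372 (log2 0.60 ± 0.08, adjusted p = 0.00049), and mitochondrial GOT2 from 707 and 759 to 537 and 554 (log2 -0.43 ± 0.09, adjusted p = 0.00531). ALDH18A1, the first enzyme of proline synthesis from glutamate, fell from 655 and 689 to 468 and 468 (adjusted p = 0.0012). GLUL, glutamine synthetase, read 31 and 28 with glutamine and 13.8 and 21.4 without it; its adjusted p of 0.0258 rose to 0.184 with an array left out. GOT1 responded less in HCT116 WT than in DLD1 WT (difference -0.66 ± 0.11, adjusted p = 0.00544).

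Amino acid transporters changed in both directions. Of 23 tested, 5 rose and 4 fell, with a median of 0.11, and 3 rose with any 1 of the 4 arrays left out. SLC7A11, the cystine importer that exports glutamate, read 623 and 639.8 with glutamine and 1165 and 1001 without it (log2 0.77 ± 0.11, adjusted p = 0.000569), without overlap. SLC6A9, a glycine transporter, read 60.9 and 43.2 with glutamine and 100.4 and 94.5 without it, and SLC1A4, a neutral amino acid exchanger, 84.9 and 92.1 with glutamine and 157 and 125 without it. Both rose (1.9-fold and 1.58-fold). The cationic transporter SLC7A2 fell from 44.8 and 46.6 to 16.7 and 19.1 (2.55-fold, adjusted p = 0.00462), and the large neutral transporter SLC43A2 from 66.9 and 87.7 to 41.2 and 47.3. SLC38A5, a glutamine transporter, fell as well, from 142 and 133 to 67.7 and 52.8 (log2 -1.20 ± 0.25, adjusted p = 0.00643, up to 0.0542 with an array left out). The main glutamine carrier SLC1A5 was not called (0.11), nor were SLC38A1 (0.24), SLC38A2 (0.25) or SLC7A5 (0.09). SLC7A11 rose less than in DLD1 WT, where the arrays went from 229 and 264 to 1030 and 957 (difference -1.24 ± 0.15, adjusted p = 0.00108). SLC1A1, a glutamate and aspartate importer, read 104 and 106 with glutamine and 157 and 148 without it in HCT116 WT, 69.6 and 73.3 with glutamine and 29 and 20.4 without it in HCT116 Mut and 374 and 414 with glutamine and 183 and 175 without it in DLD1 WT. The arrays without glutamine were thus the higher ones in HCT116 WT and the lower ones in the other two. The differences of response were 2.09 ± 0.22 and 1.68 ± 0.22 (adjusted p = 0.000631 and 0.00159), while the change in HCT116 WT alone (0.54 ± 0.16) lost its call with any of the 4 arrays left out.

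Cytosolic aminoacyl-tRNA synthetases, which charge tRNAs, split evenly in HCT116 WT: of 19 tested, 5 rose and 5 fell, with a median of 0.09. AARS1 read 1218 and 1243 with glutamine and 2288 and 2340 without it, the largest rise of the list (log2 0.91 ± 0.09, adjusted p = 4.67e-05). SARS1 read 287 and 284 with glutamine and 498 and 499 without it (log2 0.81 ± 0.10, adjusted p = 0.000349), and CARS1 165 and 168 with glutamine and 292 and 274 without it. The synthetases for alanine, serine and cysteine were thus higher on both arrays without glutamine, and MARS1, for methionine, rose by 0.48. FARSB, for phenylalanine, went from 899 and 881 to 638 and 658, and VARS1, for valine, from 249 and 239 to 180.4 and 182. Both fell, but the number of falls in the list dropped from 5 to 2 without the second array with glutamine or the first without it, and to 3 without the first with it. QARS1, which charges glutamine tRNA, had a log2 change of 0.03 ± 0.10. In all, 8 members responded higher than in HCT116 Mut (4.74% of all genes did), where the list median was -0.36. Against DLD1 WT, where the median was 0.58, 8 responded lower (5.5% of all genes did). The first count was 5 without the first HCT116 WT or HCT116 Mut array with glutamine or the second of either without it. The second was 4 without the second DLD1 WT array without glutamine, and 5 without any other array but the first of DLD1 WT with glutamine and the first of HCT116 WT without it, which left 6. With the HCT116 arrays fitted alone 1 synthetase was higher than in HCT116 Mut.

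Cholesterol synthesis genes fell along the pathway. Of 17 tested enzymes, 12 fell and none rose, with a median of -1.0, and the count was 10 to 12 with an array left out. HMGCS1, which makes HMG-CoA, read 327 and 321 with glutamine and 97.1 and 108 without it, 3.16-fold lower (log2 -1.66 ± 0.13, adjusted p = 2.21e-05). SQLE, squalene epoxidase, read 693 and 743 with glutamine and 246 and 228 without it (log2 -1.60 ± 0.11, adjusted p = 9.23e-06). DHCR7, the last enzyme of one branch, read 482 and 508 with glutamine and 137 and 140.3 without it (log2 -1.83 ± 0.10, adjusted p = 4.88e-06). All 3 were lower on both arrays without glutamine. ACAT2 (-1.77), MVK (-0.94), IDI1 (-1.20), FDPS (-1.03), LSS (-1.32), MSMO1 (-1.22), NSDHL (-0.80) and EBP (-1.0), which lie along the same pathway, also fell on the log2 scale, FDPS with an adjusted p of up to 0.171 when an array was left out. The 5 enzymes that were not called included PMVK (0.47) and TM7SF2 (-0.12).

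Of the 17 enzymes, 3 responded lower than in HCT116 Mut (4.75% of all genes did) and none higher. HMGCS1 went from 166 and 161 to 96.9 and 115 in HCT116 Mut, so that both derivatives ended alike and HCT116 WT started higher. The difference of response was -1.03 ± 0.19 (adjusted p = 0.00842). MVK, mevalonate kinase, went from 48.3 and 55.6 to 26 and 28.2 in HCT116 WT and from 34.7 and 29.2 to 42.8 and 44.1 in HCT116 Mut, in opposite directions (difference -1.38 ± 0.17, adjusted p = 0.0013). DHCR7 gave no difference against HCT116 Mut that passed the test (-0.07 ± 0.13, adjusted p = 0.821).

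INSIG1, the ER protein that holds the SREBP escort SCAP back and is itself an SREBP target, read 415 and 457 with glutamine and 53.7 and 60.5 without it. This 7.63-fold fall left the arrays far apart (log2 -2.93 ± 0.17, adjusted p = 4.88e-06). SREBF2, which encodes the SREBP that drives cholesterol genes, read 205 and 208 with glutamine and 93.2 and 88.1 without it (log2 -1.19 ± 0.10, adjusted p = 2.58e-05). STARD4, a sterol carrier, read 203 and 173 with glutamine and 50.5 and 44.3 without it (log2 -1.99 ± 0.18). MYLIP, the ligase that degrades the LDL receptor and is an LXR target, moved the other way, from 41.2 and 36.3 to 75.6 and 69.1 (log2 0.90 ± 0.18, adjusted p = 0.00549). SREBF1 (0.18), SCAP (0.07) and the LXR targets ABCA1 (0.43) and ABCG1 (1.06) were not called. INSIG1 fell more than in HCT116 Mut, where it read 169 and 163 with glutamine and 56.6 and 88.3 without it (difference -1.70 ± 0.24, adjusted p = 0.00247). Against DLD1 WT its difference was 0.01 ± 0.24 (adjusted p = 0.987).

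The SREBF2 promoter is shown because it is the one of 10 promoters of sterol regulators, and of 15 of cholesterol enzymes, with a match to TCACNCCAC, the sterol regulatory element, on either strand. Capitals mark the match, 133 to 125 bases before the start.
SREBF2, chr22:41832855-41833104, plus strand: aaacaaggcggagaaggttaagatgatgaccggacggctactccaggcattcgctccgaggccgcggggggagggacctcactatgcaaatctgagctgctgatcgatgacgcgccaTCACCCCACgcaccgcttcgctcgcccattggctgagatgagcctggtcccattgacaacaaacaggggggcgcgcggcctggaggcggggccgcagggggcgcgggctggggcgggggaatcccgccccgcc
The same letters occur in 125 of 11735 promoters of tested genes (1.07%), so this window shows no more than where they stand in SREBF2.

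Fatty acid synthesis fell less. Of 14 tested genes 6 fell and 1 rose, with a median of -0.43. FASN, fatty acid synthase, read 484 and 473 with glutamine and 229 and 259 without it, ACACA, the rate-limiting carboxylase, 364 and 367 with glutamine and 230.1 and 225 without it, and SCD, the desaturase, 2254 and 2276 with glutamine and 1403 and 1343 without it. All 3 were lower on both arrays without glutamine (log2 -0.98 ± 0.10, -0.69 ± 0.11 and -0.72 ± 0.10; adjusted p = 7.21e-05, 0.00178 and 0.00055). ACLY, which makes cytosolic acetyl-CoA, fell by 0.56, and the elongase ELOVL5 by 0.93. MID1IP1, an activator of acetyl-CoA carboxylase, rose by 0.66. SCD fell less than in DLD1 WT, where it went from 1099 and 1243 to 258 and 246 (difference 1.49 ± 0.14, adjusted p = 0.000439).

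Genes that license replication origins fell together. Of 21 tested, 18 fell and none rose, 13 of them at least 2-fold, with a median of -1.26. In bulk RNA, fewer cells in a cycle phase and less RNA per cell cannot be told apart. ORC1, the origin recognition subunit that is made in late G1, read 243 and 248 with glutamine and 56.4 and 76.8 without it (log2 -1.90 ± 0.13, adjusted p = 1.03e-05). MCM2, of the helicase ring, read 539 and 518 with glutamine and 190.1 and 190.3 without it (log2 -1.47 ± 0.08, adjusted p = 4.88e-06), and MCM10, which helps the helicase start, 461 and 447 with glutamine and 138 and 149.8 without it (log2 -1.66 ± 0.11, adjusted p = 7.9e-06). The arrays were in 2 separate pairs in each case. GINS2, of the active helicase, read 253 and 289 with glutamine and 73.3 and 72.1 without it, 3.72-fold lower, and CDC45, its partner, 118 and 108 with glutamine and 41.4 and 33 without it. MCM3, MCM5 and MCM7 fell 2.1-fold, 2.58-fold and 2.39-fold. The loader CDT1 fell 1.99-fold, its inhibitor GMNN 2.39-fold and CDC6 1.73-fold. ORC2 (-0.21), ORC4 (-0.05) and ORC5 (-0.41) were the 3 that were not called.

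Against DLD1 WT, 15 of the 21 licensing genes responded lower (5.5% of all genes did) and none higher. The count was 10 to 13 with an array left out. MCM2 went from 525 and 511 to 433 and 440.0 in DLD1 WT, a small step beside HCT116 WT (difference -1.23 ± 0.12, adjusted p = 0.000451). MCM5 went from 712 and 697 to 607 and 642 (difference -1.19 ± 0.12, adjusted p = 0.000591) and CDT1 from 229.5 and 204 to 253 and 248, which is not a fall (difference -1.21 ± 0.15, adjusted p = 0.00134). HCT116 Mut was closer. There 2 licensing genes responded lower and 2 higher (4.75% and 4.74% of all genes did). In HCT116 Mut MCM2 went from 559 and 622 to 225 and 239 (difference -0.13 ± 0.12, adjusted p = 0.572), and MCM10 from 474 and 484 to 312 and 316 (difference -1.05 ± 0.15, adjusted p = 0.003). The list median was -0.92 in HCT116 Mut, -0.40 in DLD1 WT and -0.89 in DLD1 Mut.

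At the replication fork 26 of 27 tested genes fell and none rose, 18 of them at least 2-fold, with a median of -1.15. PCNA, the sliding clamp, read 1395 and 1498 with glutamine and 669 and 650.0 without it (log2 -1.13 ± 0.10, adjusted p = 3.2e-05). PRIM1, the primase, read 295 and 291 with glutamine and 109 and 96.3 without it (log2 -1.52 ± 0.09, adjusted p = 5.72e-06), and CLSPN, which carries the checkpoint signal at forks, 265 and 299 with glutamine and 68.2 and 95.9 without it (log2 -1.80 ± 0.15, adjusted p = 2.45e-05). All were lower on both arrays without glutamine. CHAF1A, a histone chaperone, fell 2.78-fold, TIMELESS, of the fork protection complex, 2.74-fold, the clamp loader RFC4 2.44-fold and FEN1, which trims Okazaki fragments, 2.27-fold. The one not called was POLD3 (-0.25).

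LIG1, the ligase that joins Okazaki fragments, fell to a like extent in all 3 derivatives compared: from 160.1 and 164 to 70.3 and 66.5 in HCT116 WT, 174 and 192 to 77 and 78.3 in HCT116 Mut and 199.8 and 176 to 77.4 and 79.4 in DLD1 WT. The differences of response were -0.01 ± 0.13 and 0.01 ± 0.13, which does not show that they are equal. PRIM1 differed from DLD1 WT. Its arrays went from 296 and 296 to 113 and 111 in HCT116 Mut but from 183 and 187 to 223 and 228 in DLD1 WT (difference from DLD1 WT -1.80 ± 0.13, adjusted p = 0.000175). In all, 17 fork genes responded lower than in DLD1 WT (5.5% of all genes did). The count was 10 without the second HCT116 WT array with glutamine and 11 without either DLD1 WT array without it. A further comparison had 6 lower than in HCT116 Mut (4.75% of all genes were). That count was 3 without the first HCT116 WT array with glutamine or the second of either HCT116 derivative without it. None was lower when the HCT116 arrays were fitted alone.

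Nucleotide synthesis genes fell in 16 of 24 cases and rose in 1, with a median of -0.60. TYMS, thymidylate synthase, read 1091 and 1069 with glutamine and 370.2 and 316 without it (log2 -1.66 ± 0.09, adjusted p = 4.88e-06). TK1, thymidine kinase, read 1127 and 1111 with glutamine and 446 and 434 without it (log2 -1.35 ± 0.10, adjusted p = 1.18e-05), and RRM2, the regulated subunit of ribonucleotide reductase, 766 and 713 with glutamine and 297 and 308 without it (log2 -1.29 ± 0.08, adjusted p = 5.7e-06). These 3 supply deoxynucleotides, and none of their arrays overlapped between media. The glutamine-using enzymes CTPS1 (CTP synthesis) and PFAS (purine ring) read 196 and 193 with glutamine against 108 and 85.1 without it and 131 and 115 with glutamine against 58.7 and 47.9 without it. They fell 2.03-fold and 2.32-fold (adjusted p = 0.000548 and 8.34e-05), and the first pyrimidine enzyme CAD fell 1.54-fold. PPAT, the first step of purine synthesis, fell by 0.35 (adjusted p up to 0.0897 with an array left out), while GMPS (-0.27) and GART (-0.01) were not called. RRM2B, the p53-regulated subunit of ribonucleotide reductase, was the one that rose (0.40 ± 0.12, adjusted p up to 0.24 with an array left out).

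TK1 separated HCT116 WT from HCT116 Mut and DLD1 WT. In DLD1 Mut, which was not compared by a test, it went from 850 and 839 to 594 and 625. The TK1 arrays went from 1066 and 1182 to 966 and 947 in HCT116 Mut and from 963 and 822 to 763 and 710.2 in DLD1 WT (differences -1.12 ± 0.14 and -1.07 ± 0.14, adjusted p = 0.0013 and 0.00134). RRM2 went from 860.3 and 857 to 881 and 849 in DLD1 WT, where the 2 media overlapped (difference -1.30 ± 0.11, adjusted p = 0.000346). CTPS1 gave differences of -0.02 ± 0.20 and 0.06 ± 0.20, neither of which passed the test.

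The promoters of GINS2 and CDC25A are printed because they hold the E2F site TTTNNCGC, the sequence through which E2F factors are known to drive S phase genes. Capitals mark it, on either strand.
GINS2, chr16:85688955-85689204, minus strand: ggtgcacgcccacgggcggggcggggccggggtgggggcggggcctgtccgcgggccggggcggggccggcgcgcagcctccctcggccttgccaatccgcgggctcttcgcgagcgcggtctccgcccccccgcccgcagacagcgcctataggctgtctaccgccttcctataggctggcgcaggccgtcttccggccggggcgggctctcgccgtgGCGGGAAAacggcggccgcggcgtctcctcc
CDC25A, chr3:48188418-48188667, minus strand: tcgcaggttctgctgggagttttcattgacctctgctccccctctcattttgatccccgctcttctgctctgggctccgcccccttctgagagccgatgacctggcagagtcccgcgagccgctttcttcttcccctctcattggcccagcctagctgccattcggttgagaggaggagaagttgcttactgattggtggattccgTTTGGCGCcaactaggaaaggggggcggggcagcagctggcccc
It lies 31 to 24 bases before the start in GINS2 and 44 to 37 bases before it in CDC25A. A match occurred in 11 of 18 licensing promoters (61.1%), 10 of 23 fork promoters (43.5%) and 1117 of 11735 promoters of tested genes (9.52%). Nucleotide synthesis promoters, whose genes also mostly fell, held it in 2 of 21 cases (9.52%), no more than all tested genes. The share was not counted for the G1 control list, to which CDC25A belongs. Among genes that fell at least 2-fold it occurred in 52 of 231 (22.5%), and among those that rose as much in 12 of 202 (5.94%). The site was thus counted more often among the genes that fell; as these were chosen by their change, no test is given.

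**Figure D3:**
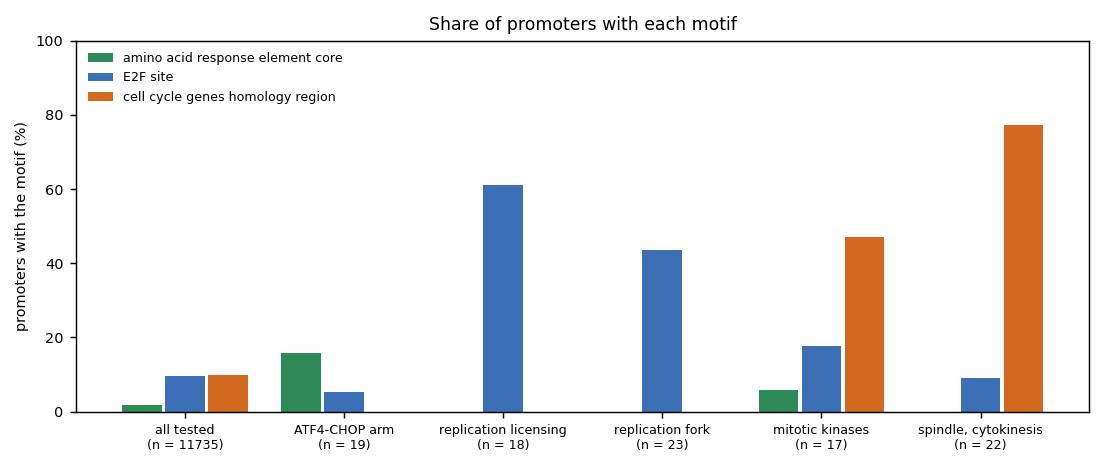
Share of 300-base promoters (vertical axis, percent) that hold the amino acid response element core, the E2F site or the cell cycle genes homology region on either strand, for all tested genes and 5 lists; n is the number of promoters found. The E2F site peaks in licensing (61.1%) and the homology region in spindle and cytokinesis genes (77.3%).

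Of 26 tested genes of G1 control, 12 fell and 3 rose, with a median of -0.35. CDC25A, the phosphatase that activates CDK2, read 172 and 167 with glutamine and 68.4 and 52.6 without it (log2 -1.50 ± 0.14, adjusted p = 5.36e-05). SKP2, which marks the inhibitor p27 for degradation, read 477 and 525 with glutamine and 166 and 188 without it (log2 -1.50 ± 0.13, adjusted p = 2.62e-05), and E2F2 66.9 and 77.6 with glutamine and 27.6 and 21.7 without it (log2 -1.56 ± 0.17, adjusted p = 0.000168). These 3 drivers of S phase entry were lower on both arrays without glutamine. CCNE1 and CCNE2, the E cyclins, fell 1.56-fold and 2.27-fold. CDKN2B, which encodes the CDK4 inhibitor p15, went up from 16.9 and 17.2 to 47.5 and 42.6 (log2 1.40 ± 0.18, adjusted p = 0.000415), and cyclin D1, CCND1, from 763 and 746 to 1032 and 1078 (1.4-fold). CDKN1A, which encodes p21, read 41.4 and 48.7 with glutamine and 56.2 and 67 without it and was not called (0.45 ± 0.15, adjusted p = 0.0586).

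Cyclin E1 and E2F7, a repressor of E2F targets, responded unlike in HCT116 Mut. CCNE1 went from 339.5 and 362 to 84.6 and 97 there, a larger fall (difference 1.31 ± 0.14, adjusted p = 0.000734). E2F7 fell in HCT116 WT from 199.5 and 192 to 101 and 98.9 but read 225 and 202 with glutamine and 234 and 237 without it in HCT116 Mut and 153 and 174 with glutamine and 158 and 151 without it in DLD1 WT. Its differences were -1.11 ± 0.14 and -0.89 ± 0.14 (adjusted p = 0.00136 and 0.00334). E2F2 moved from 43 and 41.1 to 54.3 and 53.4 in DLD1 WT, the opposite way to HCT116 WT (difference -1.91 ± 0.25, adjusted p = 0.00145).

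Mitotic genes fell as well. Of 22 tested mitotic kinases, cyclins and checkpoint genes, 16 fell and none rose (median -0.73), and of 24 tested spindle and cytokinesis genes 23 fell and none rose (median -0.76). MYBL2, the B-MYB factor that opens mitotic transcription, read 413 and 410.4 with glutamine and 163 and 144 without it (log2 -1.43 ± 0.09, adjusted p = 5.46e-06), and FOXM1, its partner in G2, 299.5 and 287 with glutamine and 185 and 179.5 without it (log2 -0.69 ± 0.10, adjusted p = 0.00068). CDK1, the mitotic kinase, read 245 and 233 with glutamine and 124 and 107 without it (log2 -1.05 ± 0.13, adjusted p = 0.000356). Each pair without glutamine was the lower one. The cyclins CCNA2 and CCNB1 fell 1.98-fold and 1.71-fold, the polo kinase PLK1 1.73-fold and the checkpoint kinase TTK 2.45-fold. SPC24, of the NDC80 kinetochore complex, fell most among spindle genes, from 145 and 146 to 31.1 and 47.2 (log2 -1.93 ± 0.17, adjusted p = 3.2e-05). CENPE (-0.24) was the spindle gene not called. Without the first array with glutamine 19 of the 24 were called, and 20 with the HCT116 arrays fitted alone.

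Spindle and cytokinesis genes set HCT116 WT apart from both other derivatives compared. Of the 24 genes, 18 responded lower than in HCT116 Mut (4.75% of all genes were), 21 lower than in DLD1 WT (5.5% of all genes), and 17 lower than in both; none responded higher. The counts were 15 to 17 and 16 to 19 with an array left out, and 10 against HCT116 Mut with the HCT116 arrays fitted alone. The list median was -0.76 in HCT116 WT, 0.07 in HCT116 Mut and 0.05 in DLD1 WT. In DLD1 Mut, which was not compared by a test, it was -0.18. The mitotic kinases and cyclins had a median of -0.66 in DLD1 Mut, beside -0.73 in HCT116 WT.

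KIF23, a kinesin of the central spindle, read 684 and 706 with glutamine and 289 and 319 without it in HCT116 WT (log2 -1.19 ± 0.10, adjusted p = 2.39e-05). It read 714 and 643 with glutamine and 555 and 641 without it in HCT116 Mut and 714 and 727 with glutamine and 717 and 703 without it in DLD1 WT. With glutamine the 3 derivatives were alike, and the 2 arrays of HCT116 WT without it stood alone. The differences of response were -1.01 ± 0.14 and -1.17 ± 0.14 (adjusted p = 0.00204 and 0.00101). NDC80, which holds microtubules at kinetochores, went from 220.4 and 222 to 123 and 121 in HCT116 WT, from 231 and 205 to 279.7 and 298 in HCT116 Mut and from 157 and 171 to 191 and 193 in DLD1 WT. It was lower without glutamine in the first and higher in the other two (differences -1.27 ± 0.14 and -1.09 ± 0.14, adjusted p = 0.000648 and 0.00127). ANLN, anillin of the contractile ring, went from 962 and 865 to 530.4 and 527, from 722 and 700.4 to 986 and 970.4 and from 1144 and 1210 to 1224 and 1213, in the same order of derivatives. Only in HCT116 WT, among these 3, were both arrays without glutamine the lower ones (differences -1.25 ± 0.12 and -0.84 ± 0.12, adjusted p = 0.000294 and 0.00196).

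TOP2A, the topoisomerase that disentangles chromosomes, went from 737 and 703 to 419.8 and 391 in HCT116 WT, with differences of response of -1.07 ± 0.12 against HCT116 Mut and -0.98 ± 0.12 against DLD1 WT (adjusted p = 0.00094 and 0.0013). The checkpoint kinase BUB1 went from 476 and 486 to 240.2 and 234 (differences -0.88 ± 0.11 and -0.98 ± 0.11, adjusted p = 0.00154 and 0.000944), and KIF11, the kinesin that separates spindle poles, from 518 and 483 to 234 and 248 (differences -1.0 ± 0.13 and -1.18 ± 0.13, adjusted p = 0.0014 and 0.000742). All 3 were below HCT116 Mut and DLD1 WT in response. SPC25, a partner of SPC24, behaved otherwise against HCT116 Mut, where it fell from 103 and 87.3 to 30.8 and 24.8 (difference 0.28 ± 0.19, adjusted p = 0.416).

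**Figure D4:**
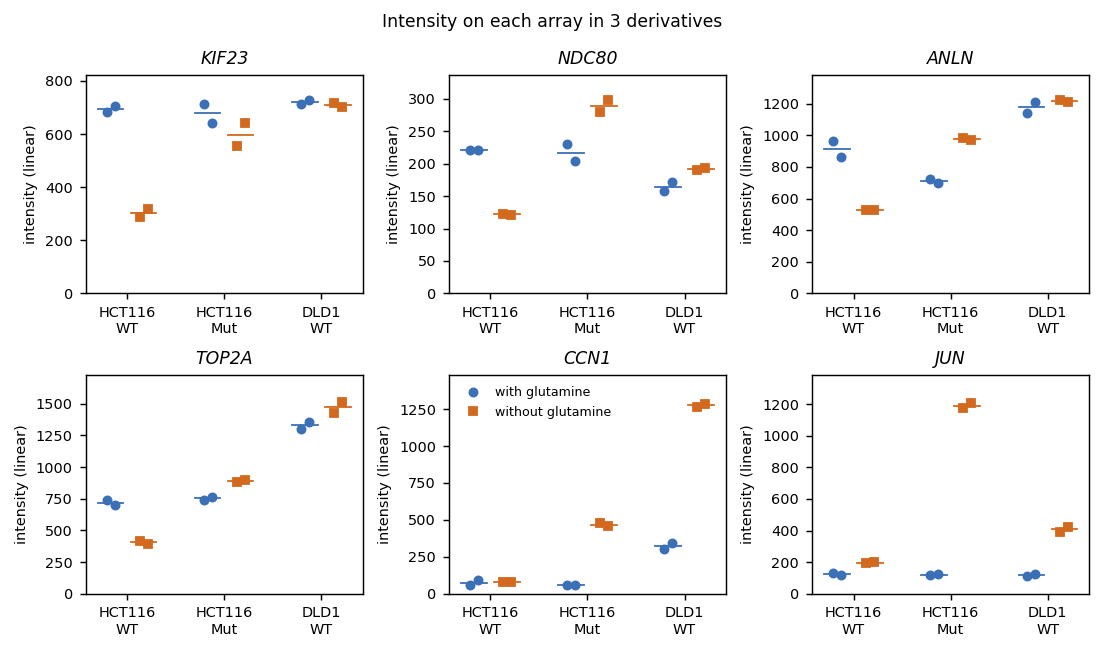
Intensity (vertical axis, linear, from 0) on each array of HCT116 WT, HCT116 Mut and DLD1 WT for 4 mitotic genes, CCN1 and JUN, with glutamine in circles and without it in squares; bars are geometric means of 2 arrays. KIF23 drops to 289 and 319 in HCT116 WT and stays at 555 or more in the other derivatives, and JUN reaches 1177 and 1206 in HCT116 Mut against 192 and 202 in HCT116 WT.

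**Figure D5:**
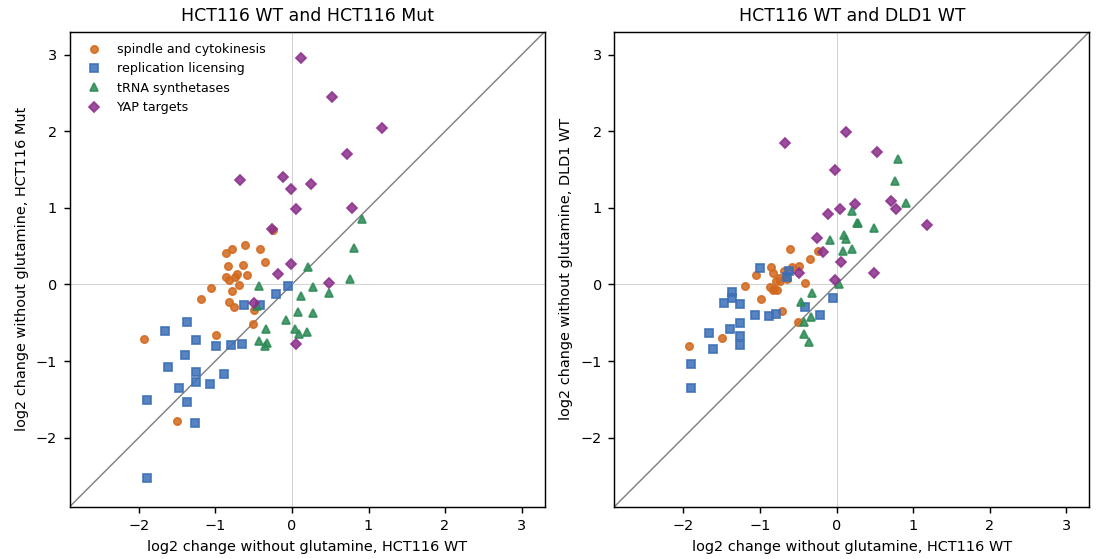
Log2 change without glutamine in HCT116 WT (horizontal axis) against that in HCT116 Mut (left) and DLD1 WT (right) for members of 4 lists, with the line of equal change. Most spindle genes lie above the line in both panels (medians -0.76, 0.07 and 0.05), and the panels share the HCT116 WT arrays.

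The promoters of KIF23 and ANLN hold TTTGAA, the core of the cell cycle genes homology region through which the MuvB complexes are known to act. They are shown as 2 of the genes that separated HCT116 WT from HCT116 Mut and DLD1 WT, with the matches on either strand in capitals.
KIF23, chr15:69414099-69414348, plus strand: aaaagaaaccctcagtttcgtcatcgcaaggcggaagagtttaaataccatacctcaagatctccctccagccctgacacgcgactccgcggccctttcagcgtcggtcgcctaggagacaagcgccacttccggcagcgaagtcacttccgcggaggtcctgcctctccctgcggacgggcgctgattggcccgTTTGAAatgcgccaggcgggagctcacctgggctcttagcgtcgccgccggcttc
ANLN, chr7:36389612-36389861, plus strand: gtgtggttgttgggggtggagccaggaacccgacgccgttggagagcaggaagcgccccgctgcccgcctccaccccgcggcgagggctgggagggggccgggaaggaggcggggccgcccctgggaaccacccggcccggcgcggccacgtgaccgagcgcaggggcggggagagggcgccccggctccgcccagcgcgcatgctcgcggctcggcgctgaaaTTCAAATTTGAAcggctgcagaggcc
The match stands 55 to 50 bases before the start in KIF23, and in ANLN a match on each strand fills the bases 26 to 15 before it. Of 22 spindle and cytokinesis promoters 17 (77.3%) held the motif, of 17 promoters of mitotic kinases and cyclins 8 (47.1%), of 18 licensing promoters none, and of 11735 promoters of tested genes 1172 (9.99%). The licensing and mitotic lists thus differed in the motif they held, while both fell in HCT116 WT.

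Genes of ER folding and its sensors went both ways: of 18 tested, 10 rose and 5 fell, with a median of 0.34. ERN1, the sensor IRE1, read 46.6 and 42.2 with glutamine and 126 and 137 without it (log2 1.57 ± 0.12, adjusted p = 1.98e-05), and its target factor XBP1 267 and 273 with glutamine and 495 and 453 without it (log2 0.81 ± 0.10, adjusted p = 0.00038). DNAJB9, a cochaperone, read 23.7 and 25.4 with glutamine and 65.3 and 58.7 without it (log2 1.34 ± 0.12, adjusted p = 3.64e-05). All were higher on both arrays without glutamine. HSPA5, the main ER chaperone BiP, rose from 2497 and 2624 to 3681 and 3854 (1.47-fold) and HYOU1 from 578 and 615 to 872 and 919.9 (1.5-fold). The disulfide isomerase PDIA4 fell from 538 and 568 to 363 and 389, but the falls in the list went from 5 to 2 or 3 with any of the 4 arrays left out. In DLD1 WT HSPA5 went from 2861 and 3309 to 2296 and 2313 and HYOU1 from 615 and 659 to 558 and 539, the opposite direction. The differences were 0.97 ± 0.13 and 0.80 ± 0.13 (adjusted p = 0.0015 and 0.00468). No gene of the list differed from HCT116 Mut in response at the threshold.

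Known p53 targets gave 6 rises and 1 fall among 23 tested, with a median of 0.10, and 2 or 3 rises with any of the 4 arrays left out. GADD45A, a stress gene that ATF4 also induces, read 366 and 401 with glutamine and 1147 and 1128 without it (log2 1.57 ± 0.09, adjusted p = 4.88e-06). TNFRSF10B, the death receptor DR5 and a CHOP target, read 285 and 258 with glutamine and 533 and 484 without it (log2 0.91 ± 0.09, adjusted p = 5.25e-05). MDM2 (0.01) and BAX (-0.31) were not called, and the death receptor FAS fell from 60.3 and 66.1 to 23.5 and 35.5 (log2 -1.13 ± 0.21, adjusted p = 0.00377). In HCT116 Mut the list median was 0.60. Against it, 9 of the 23 genes responded lower in HCT116 WT (4.75% of all genes did), and 3 did with the HCT116 arrays fitted alone. GADD45A rose less than in DLD1 WT (difference -0.75 ± 0.12, adjusted p = 0.00475).

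NRF2 targets, which detoxify and make glutathione and NADPH, gave 5 rises and 2 falls among 22, with a median of 0.08. Over all tested genes 10.3% rose and 10.1% fell. OSGIN1 read 16.1 and 16.9 with glutamine and 34.2 and 36.7 without it and the exporter ABCC3 62.9 and 60.5 with glutamine and 169 and 116 without it. Both rose, 2.15-fold and 2.27-fold. In all, 10 of the 22 responded higher than in HCT116 Mut (4.74% of all genes did), where the list median was -0.33, and none lower. The count was 8 or 9 with an array left out and 5 with the HCT116 arrays fitted alone. GSR, glutathione reductase, read 922 and 891 with glutamine and 836 and 906 without it in HCT116 WT, where the media overlapped, but 1083 and 994 with glutamine and 388 and 389.6 without it in HCT116 Mut (difference 1.36 ± 0.12, adjusted p = 0.00026). TKT, transketolase of the pentose phosphate pathway, read 1311 and 1379 with glutamine and 1014 and 1150 without it against 1547 and 1577 with glutamine and 503 and 551 without it in HCT116 Mut (difference 1.25 ± 0.13, adjusted p = 0.000648).

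Immediate early, AP-1 and ERK feedback genes rose moderately: 14 of 31 rose and 1 fell, with a median of 0.31, and 9 rose without the second array without glutamine. JUNB read 400.1 and 363 with glutamine and 596 and 703 without it (log2 0.76 ± 0.10, adjusted p = 0.000334). The ERK phosphatases DUSP4 and DUSP5 read 183 and 179 with glutamine against 355 and 373 without it and 333 and 310.1 with glutamine against 608 and 614 without it (2.01-fold and 1.9-fold). Both were higher on the 2 arrays without glutamine, as was the receptor EPHA2 (429 and 438 with glutamine and 745 and 752 without it). KLF10 rose 1.79-fold, IER3 1.55-fold and IER2 1.63-fold. FOS (-0.12), EGR1 (0.29) and MYC (-0.15) were not called.

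JUN, the core AP-1 subunit, went from 132 and 117 to 192 and 202 in HCT116 WT (log2 0.67 ± 0.10, adjusted p = 0.00122). In HCT116 Mut the same medium change took it from 115 and 127 to 1177 and 1206, and in DLD1 WT from 114 and 126 to 389.8 and 425. The 3 derivatives started at like intensities, and HCT116 WT ended lowest. Its response was lower than in HCT116 Mut and in DLD1 WT (differences -2.63 ± 0.15 and -1.10 ± 0.15, adjusted p = 4.87e-05 and 0.00168). EPHA2 rose less than in HCT116 Mut, where it went from 411 and 437 to 1396 and 1583 (difference -1.02 ± 0.14, adjusted p = 0.00245). Of the 31 genes, 9 responded lower than in HCT116 Mut and 1 higher (4.75% and 4.74% of all genes did). With the HCT116 arrays fitted alone 5 were lower. Against DLD1 WT 12 were lower and 2 higher (5.5% and 4.56% of all genes were). The lower count was 6 or 7 without any 1 array other than the first of DLD1 WT and the second of HCT116 WT with glutamine.

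YAP targets, genes driven by the Hippo pathway's coactivator with TEAD factors, gave 4 rises and 2 falls among 16, with a median of 0.05. CCN1, a secreted matrix protein and a standard readout of YAP, read 59 and 91.1 with glutamine and 77.8 and 81.4 without it in HCT116 WT, where the media overlapped (log2 0.12 ± 0.17, adjusted p = 0.695). It read 61.8 and 58.4 with glutamine and 477 and 456 without it in HCT116 Mut and 301 and 345 with glutamine and 1264 and 1286 without it in DLD1 WT, far apart in both. The differences were -2.84 ± 0.23 and -1.87 ± 0.23 (adjusted p = 0.000227 and 0.0013). CCN2, a related protein, went from 22.9 and 18 to 27.9 and 30.6, not called, against 28.4 and 23.7 to 154 and 129.7 in HCT116 Mut (difference -1.92 ± 0.25, adjusted p = 0.00169). ANKRD1 was dim in HCT116 WT, at 4.46 and 4.52 with glutamine and 2.95 and 2.69 without it, and went from 99.1 and 98.6 to 337 and 378 in DLD1 WT (difference -2.52 ± 0.25, adjusted p = 0.000539), so this difference rests on DLD1 WT.

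In the whole list 9 of 16 genes responded lower than in HCT116 Mut, 8 lower than in DLD1 WT and 6 lower than in both, beside medians of 1.12 and 0.95 in those derivatives. Over all genes 4.75% responded lower than in HCT116 Mut and 5.5% lower than in DLD1 WT. With an array left out the counts were 8 or 9 and 6 to 8. NT5E, the ecto-nucleotidase CD73, did rise in HCT116 WT, from 685 and 686 to 1595 and 1502 (log2 1.18 ± 0.11, adjusted p = 3.85e-05), and so did AJUBA (1.72-fold) and YAP1 itself (0.48, adjusted p up to 0.0635 with an array left out). SNAI2, a factor of the epithelial-mesenchymal switch, read 10.8 and 8.86 with glutamine and 13 and 12.6 without it in HCT116 WT, 8.54 and 9.87 with glutamine and 12.3 and 11.8 without it in DLD1 WT and 13.8 and 12.8 with glutamine and 504 and 465 without it in HCT116 Mut. The 2 HCT116 Mut arrays without glutamine stood alone (difference -4.80 ± 0.36, adjusted p = 0.00017). CDH1 and CLDN4, of epithelial junctions, rose in HCT116 WT from 446 and 431 to 774 and 698 and from 95 and 87 to 211 and 234. Both responded higher than in DLD1 WT (0.80 ± 0.16 and 1.94 ± 0.26, adjusted p = 0.0125 and 0.00168).

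Of 16 Wnt targets and intestinal stem cell genes 2 rose and 1 fell in HCT116 WT, near the shares of all tested genes (10.3% rose and 10.1% fell), with a median of 0.01 against -0.85 in DLD1 WT. RNF43, which removes Wnt receptors, went from 47.4 and 55.7 to 101 and 76.8 in HCT116 WT (log2 0.78 ± 0.13, adjusted p = 0.0021), from 85.5 and 81.1 to 59 and 59.2 in HCT116 Mut and from 402 and 371 to 231 and 208 in DLD1 WT. It was higher without glutamine in the first and lower in the others (differences 1.27 ± 0.19 and 1.60 ± 0.19, adjusted p = 0.0029 and 0.000957). LGR5, the stem cell receptor, was dim in HCT116 WT (4.38 and 3.27 with glutamine and 3.27 and 6.20 without it) and went from 303 and 329 to 48.2 and 51.8 in DLD1 WT, so its difference of 2.91 ± 0.44 (adjusted p = 0.003) rests on DLD1 WT.

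Autophagy and lysosome genes gave 9 rises and 1 fall among 26, with a median of 0.24. MAP1LC3B, the LC3 protein of autophagosome membranes, read 7.85 and 6.25 with glutamine and 21.7 and 18.5 without it (log2 1.52 ± 0.16, adjusted p = 0.00012). WIPI1, an early autophagosome protein, read 220.0 and 223 with glutamine and 477 and 517 without it (log2 1.17 ± 0.13, adjusted p = 0.000179), and the cargo receptor NBR1 308 and 318 with glutamine and 648 and 671 without it (log2 1.07 ± 0.08, adjusted p = 1.32e-05). None of the 3 overlapped between media. GABARAPL1 rose 2.21-fold, the receptor SQSTM1 1.7-fold and TFE3, a factor for lysosomal genes, 2.1-fold. Lysosomal LAMP1 (-0.08), CTSD (-0.01) and MCOLN1 (-0.11) were not called. WIPI1 rose more than in DLD1 WT, where it read 113 and 105 with glutamine and 121 and 133 without it (difference 0.95 ± 0.19, adjusted p = 0.0109).

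Of 13 genes of the MYC and MondoA network 3 rose and none fell. MXD1, a MAX partner that opposes MYC, read 39.6 and 41.5 with glutamine and 142 and 138 without it (log2 1.79 ± 0.11, adjusted p = 5.46e-06), and ARRDC4, an arrestin driven by MondoA, 54 and 42 with glutamine and 166 and 172 without it (log2 1.83 ± 0.12, adjusted p = 7.9e-06). TXNIP, the related MondoA target that limits glucose uptake, read 6.25 and 6.54 with glutamine and 8.63 and 4.76 without it in HCT116 WT, where the media overlapped near the array median. It went from 69.3 and 87 to 769 and 751 in DLD1 WT (difference -3.29 ± 0.35, adjusted p = 0.000742), and the difference comes from that rise. Among FOXO factors, insulin receptor and PI3K genes 3 of 16 rose and none fell (10.3% and 10.1% of all tested genes did). IRS2, the insulin receptor substrate, read 41.1 and 40.6 with glutamine and 80.3 and 119 without it (log2 1.26 ± 0.17, adjusted p = 0.000644), and EGFR 309 and 319 with glutamine and 536 and 490.0 without it (1.63-fold).

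Central carbon metabolism fell in part. Of 23 glycolysis genes 7 fell and 1 rose (median -0.22), with 3 falls left without the first array without glutamine and 4 without the first with it. With glutamine GAPDH read 81.9 and 82, LDHA 65.3 and 71.3 and TPI1 25.2 and 30.7. How well these probe sets report their genes was not checked. HK2, the inducible hexokinase, read 131 and 117 with glutamine and 63.2 and 73.9 without it (log2 -0.85 ± 0.13, adjusted p = 0.00118) and PFKL 132 and 148 with glutamine and 74 and 80.1 without it (log2 -0.86 ± 0.11, adjusted p = 0.000456). Of 21 tricarboxylic acid cycle and linked genes 8 fell and 2 rose (median -0.22), with 5 falls with any of the 4 arrays left out. Of these genes IDH2 read 199.8 and 176 with glutamine against 106 and 125 without it. SUCLG2 read 308 and 318 with glutamine against 174 and 168 without it. Both were lower without glutamine (1.62-fold and 1.83-fold). PCK2, the mitochondrial enzyme that makes phosphoenolpyruvate and an ATF4 target, rose from 33 and 25 to 54.3 and 57.5 (log2 0.96 ± 0.16, adjusted p = 0.0018). It went from 46.8 and 57.4 to 29.4 and 27.1 in HCT116 Mut (difference 1.84 ± 0.23, adjusted p = 0.0013).

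Ribosome biogenesis genes gave 12 falls and 1 rise among 22, with a median of -0.37, but 5 to 7 falls with any of the 4 arrays left out, lowest without the first array with glutamine. UTP20, of the small subunit processome, read 190.3 and 183 with glutamine and 77.1 and 83.4 without it (log2 -1.22 ± 0.12, adjusted p = 5.43e-05), and BOP1, of large subunit maturation, 139 and 144 with glutamine and 76.2 and 76.1 without it (log2 -0.89 ± 0.11, adjusted p = 0.000334). Both fell without overlap. The RNA polymerase subunit POLR1D rose 1.47-fold.

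Secreted stress factors gave 7 rises and no fall among 16, with a median of 0.41; 3 rose without the first array without glutamine and 4 without the first with it. GDF15, a stress hormone that lowers appetite, read 1423 and 1441 with glutamine and 2906 and 3135 without it (log2 1.08 ± 0.09, adjusted p = 2.27e-05). ANGPTL4, an inhibitor of lipoprotein lipase, read 24.6 and 17.3 with glutamine and 99.7 and 101 without it (log2 2.28 ± 0.24, adjusted p = 9.62e-05), and VEGFA 35.8 and 42.7 with glutamine and 70.9 and 66.7 without it (log2 0.82 ± 0.11, adjusted p = 0.000613). All were higher on both arrays without glutamine. In the BCL2 family 4 of 14 rose and 2 fell (10.3% and 10.1% of all tested genes did). The CHOP and p53 target PMAIP1, NOXA, read 456 and 519.7 with glutamine and 805 and 772 without it, and the survival protein BCL2L1 327 and 336 with glutamine and 491 and 498 without it. Both thus rose, 1.62-fold and 1.49-fold, while BCL2 fell by 1.08 on the log2 scale, with an adjusted p of up to 0.116 when an array was left out.

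Ligands of the killer cell receptor NKG2D moved apart, with 2 rises and 2 falls among 7. ULBP1, which ATF4 induces, read 84.4 and 89.4 with glutamine and 252 and 267 without it (log2 1.58 ± 0.22, adjusted p = 0.000567), whereas MICB read 384 and 374 with glutamine and 215 and 208 without it (log2 -0.84 ± 0.10, adjusted p = 0.000166). MICA fell 1.6-fold. ULBP1 rose less than in DLD1 WT, where it went from 49.1 and 36.3 to 464 and 389 (difference -1.76 ± 0.30, adjusted p = 0.00573). Interferon-induced genes gave 2 rises and 1 fall among 19. Over all tested genes 10.3% rose and 10.1% fell, so these counts do not stand out. The fall was in OAS3, from 62 and 60.7 to 24.8 and 33 (adjusted p = 0.00135).

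Among the 15 largest rises, LURAP1L led. It read 7.96 and 11.4 with glutamine and 146 and 124 without it (14.1-fold, log2 3.82 ± 0.23, adjusted p = 5.46e-06). SLFN5, of the Schlafen family, read 138 and 120.2 with glutamine and 973 and 1073 without it (log2 2.99 ± 0.21, adjusted p = 9.87e-06). LAMP3, a lysosomal protein induced by ATF4, read 18.7 and 15.6 with glutamine and 118 and 121 without it (log2 2.81 ± 0.16, adjusted p = 4.88e-06). Arrays without overlap between media were a condition for entering these 15, so their separation adds nothing. The keratin KRT80 rose 6.89-fold, the cytokine receptor IL20RB 7.46-fold, UPP1, uridine phosphorylase, 6.54-fold, the protease inhibitor SLPI 4.81-fold and DMGDH, dimethylglycine dehydrogenase, 5.15-fold. CLGN, SPX, TLCD2 and MICALCL rose 7.14-fold, 6.18-fold, 5.28-fold and 5.2-fold from intensities of 12.7 or less with glutamine. SLFN5 was near the array median in DLD1 WT, at 4.34 and 5.92 with glutamine and 5.51 and 7.73 without it, so that its difference of 2.62 ± 0.29 (adjusted p = 0.000874) sets a rise beside a dim gene. LURAP1L rose more than in DLD1 WT, where it went from 15.6 and 18 to 81.6 and 64.8 (difference 1.70 ± 0.32, adjusted p = 0.00877). LAMP3 rose more than in HCT116 Mut, where it went from 25.5 and 30.9 to 90.6 and 82.2 (difference 1.19 ± 0.23, adjusted p = 0.0103).

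The 15 largest falls included INSIG1, STARD4 and SPC24, given above. GABRQ, a GABA receptor subunit, read 65 and 59.5 with glutamine and 7.91 and 11.6 without it (log2 -2.70 ± 0.21, adjusted p = 2.04e-05), and PLA2G4A, the cytosolic phospholipase A2 that frees arachidonic acid, 61.2 and 59.3 with glutamine and 13.9 and 11.1 without it (log2 -2.28 ± 0.24, adjusted p = 9.89e-05). TICRR, which turns licensed origins on, read 325 and 281 with glutamine and 72.5 and 88.9 without it (log2 -1.91 ± 0.13, adjusted p = 7.9e-06). The falls were likewise chosen among genes whose arrays did not overlap. TICRR also responded lower than in HCT116 Mut and DLD1 WT (-1.31 ± 0.18 and -1.24 ± 0.18, adjusted p = 0.00204 and 0.00255). OTULINL fell 6.32-fold, NRGN 5.21-fold and the purine receptor P2RY1 4.31-fold. LIPG, endothelial lipase, fell from 60.2 and 50.1 to 20 and 10.5 in HCT116 WT and went up from 28.8 and 26.3 to 93.3 and 89.3 in HCT116 Mut (difference -3.65 ± 0.34, adjusted p = 0.000316). The histone gene H2BC14 fell from 3479 and 3233 to 559.9 and 525, and H2BC13, H2AC14, the olfactory receptor OR51B6 and MTRNR2L2 were also in this group. Members of these 3 families have near-identical copies, and their values are uncertain for that reason.

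Of the genes with the largest differences from HCT116 Mut, FAM89B read 279 and 283 with glutamine and 489.6 and 526 without it in HCT116 WT against 265 and 286 with glutamine and 115 and 111 without it in HCT116 Mut, in opposite directions (difference 2.14 ± 0.14, adjusted p = 6.96e-05). PIK3C2B, a class II PI3K, went from 21.2 and 23.5 to 42.4 and 42.4, from 33.6 and 28.8 to 15.1 and 14.7 in HCT116 Mut and from 87.3 and 103 to 52.4 and 41.7 in DLD1 WT. It rose in HCT116 WT (log2 0.93 ± 0.13, adjusted p = 0.000615) and was lower without glutamine in both others (differences 1.99 ± 0.18 and 1.95 ± 0.18, adjusted p = 0.000263 and 0.000439). BMP4, a TGF-beta family ligand, read 2361 and 2408 with glutamine and 1907 and 2109 without it, not called, against 1727 and 1712 with glutamine and 319 and 357 without it in HCT116 Mut (difference 2.10 ± 0.12, adjusted p = 4.87e-05). GEM, a small GTPase, went from 31.9 and 34.3 to 83.7 and 96 in HCT116 WT (log2 1.44 ± 0.14, adjusted p = 7.77e-05) and from 40.5 and 37 to 13.4 and 12 in DLD1 WT, in opposite directions (difference 3.05 ± 0.20, adjusted p = 0.000175). KIT and CFTR, by contrast, were near the array median in HCT116 WT under both media (5.08 and 3.39 with glutamine and 4.84 and 3.31 without it; 2.42 and 3.01 with glutamine and 2.69 and 3.18 without it), and their differences of 2.84 ± 0.43 and 2.96 ± 0.26 (adjusted p = 0.00302 and 0.000408) come from falls in DLD1 WT and give no response of HCT116 WT.

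YPEL3 was also among the 10 largest differences. It read 14 and 16.2 with glutamine and 38.7 and 34.2 without it in HCT116 WT against 18 and 18 with glutamine and 12.1 and 7.39 without it in HCT116 Mut (difference 2.21 ± 0.35, adjusted p = 0.00438), and WNT16, a Wnt ligand, 476 and 392 with glutamine and 375 and 339 without it against 168 and 159.6 with glutamine and 20.1 and 27.1 without it (difference 2.53 ± 0.48, adjusted p = 0.00975). VLDLR, a lipoprotein receptor, read 4.63 and 3.03 with glutamine and 2.92 and 3.34 without it in HCT116 WT against 8.38 and 10.3 with glutamine and 51.2 and 54.9 without it in DLD1 WT (difference -2.78 ± 0.30, adjusted p = 0.000744). SLC16A4, of the monocarboxylate transporter family, read 3.36 and 4.49 with glutamine and 4.01 and 4.23 without it against 15.3 and 31.4 with glutamine and 236 and 231 without it (difference -3.33 ± 0.44, adjusted p = 0.00165). Both were near the array median in HCT116 WT under both media, so these differences come from rises in DLD1 WT and give no response of HCT116 WT.

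Of the 1611 genes that rose, 202 (12.5%) rose further than in HCT116 Mut, 276 (17.1%) further than in DLD1 WT and 68 further than in both. Of the 1580 that fell, 244 (15.4%) fell further than in HCT116 Mut, 376 (23.8%) further than in DLD1 WT and 159 further than in both. As the comparisons share the HCT116 WT arrays, these overlaps are given as counts only.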

How the data were processed

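The authors deposited 1 linear intensity per probe set and array, in a table of 53617 probe sets over 16 Affymetrix whole-transcript arrays; how it was background-corrected and normalized is not given in the sources used here. Of the probe sets, 23871 carry 1 gene symbol in the platform annotation, 1842 several and 27904 none, and 90 symbols were updated through Entrez. The brightest probe set stood for each of 22395 genes, and levels of different probe sets were not compared. Intensities were taken to log2, the 15676 genes in the upper 70% by mean level were kept (lowest mean log2 1.65), and group means were fitted over all 16 arrays with limma 3.58.1 in R 4.3.3, with 8 residual degrees of freedom and Benjamini-Hochberg adjustment over all tested genes. Every adjusted p in the text is from this moderated fit, and ± is its standard error. Differences between derivatives are contrasts of contrasts in the same fit. Data with the same groups and independent normal noise were simulated with 200 of 15676 genes changed, far fewer than the 3191 called here. Of 100 genes changed by 1 log2 unit 64 were recovered, and of 100 changed by 2 log2 units 94. There were 9 false calls among the unchanged genes. These rates need not hold where many more genes change.

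The labels call the arrays biological replicates without naming separate cultures or days, so p-values measure the spread between these samples. Of 688 symbols in 32 gene lists, the 4 lists of cell type markers not counted, 631 had a probe set and 600 were tested. The members and lists were chosen with earlier results of these data known. Named genes are list members, the 15 largest non-overlapping rises and falls, and the 10 largest differences each way; differences between derivatives are named mostly where they held with any 1 array left out, a choice made after their values were seen. Promoters are RefSeq sequences of GRCh38.p14, matched by symbol (27305 in all, 11735 for tested genes). Alternatives were the filter, normalization, offset, probe set rule, prior, arrays fitted and a replicate block.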

Additional observations from a re-analysis of the deposited data

Results flagged for a closer look

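Differences between derivatives were singled out because the change without glutamine in HCT116 WT and that in another derivative differed by a limma test of the difference itself, for 1487 genes against HCT116 Mut and 1577 against DLD1 WT. Values are differences of log2 changes, and their errors and adjusted p stand in the report. Whether the allele or another difference between the derivatives goes with them cannot be told apart.

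Genes that responded higher in HCT116 WT than in HCT116 Mut were WNT16 (2.53), YPEL3 (2.21), CHAC1 (2.21), FAM89B (2.14), BMP4 (2.10), SLC1A1 (2.09), PIK3C2B (1.99), PCK2 (1.84), DDIT4 (1.75), PHGDH (1.62), GSR (1.36) and CCNE1 (1.31). Further such genes were RNF43 (1.27), TKT (1.25), ASNS (1.20), LAMP3 (1.19) and TRIB3 (0.93). Genes that responded lower than in HCT116 Mut were SNAI2 (-4.80), LIPG (-3.65), CCN1 (-2.84), JUN (-2.63), CCN2 (-1.92), INSIG1 (-1.70), MVK (-1.38), TICRR (-1.31), NDC80 (-1.27), ANLN (-1.25), TK1 (-1.12) and E2F7 (-1.11). Further such genes were TOP2A (-1.07), MCM10 (-1.05), HMGCS1 (-1.03), EPHA2 (-1.02), KIF23 (-1.01), KIF11 (-1.0) and BUB1 (-0.88). In HCT116 WT BMP4, CCN1 and CCN2 were not called, and GSR overlapped between media. SNAI2 read 8.86 to 13 and WNT16 339 to 476 on the 4 HCT116 WT arrays. In these 6 genes the difference comes mostly from the change in HCT116 Mut.

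Genes that responded higher in HCT116 WT than in DLD1 WT were GEM (3.05), SLFN5 (2.62), PIK3C2B (1.95), CLDN4 (1.94), LURAP1L (1.70), SLC1A1 (1.68), RNF43 (1.60), SCD (1.49) and HSPA5 (0.97). Further such genes were WIPI1 (0.95), HYOU1 (0.80) and CDH1 (0.80). Genes that responded lower than in DLD1 WT were NIBAN1 (-2.18), E2F2 (-1.91), CCN1 (-1.87), DDIT4 (-1.86), PRIM1 (-1.80), ASNS (-1.79), ULBP1 (-1.76) and PHGDH (-1.38). Further such genes were RRM2 (-1.30), TICRR (-1.24), SLC7A11 (-1.24), MCM2 (-1.23), CDT1 (-1.21), MCM5 (-1.19), KIF11 (-1.18), KIF23 (-1.17), SESN2 (-1.11), JUN (-1.10), NDC80 (-1.09) and TK1 (-1.07). Next in size came TOP2A (-0.98), BUB1 (-0.98), CHAC1 (-0.90), E2F7 (-0.89), ANLN (-0.84), GADD45A (-0.75) and GOT1 (-0.66). For another 7 genes the difference rests on DLD1 WT and gives no response of HCT116 WT, where they read 2.42 to 8.63, near the array median, on all 4 arrays. These were CFTR (2.96), LGR5 (2.91) and KIT (2.84), which fell in DLD1 WT, and SLC16A4 (-3.33), TXNIP (-3.29), VLDLR (-2.78) and ANKRD1 (-2.52), which rose there. SLFN5 was near the median in DLD1 WT instead.

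Signal also changed in probe sets outside the main measurement, which name no gene or several. Of 29746 such probe sets 13229 were bright enough to test, and 439 (3.32%) passed an adjusted p under 0.05 in HCT116 WT, 215 higher and 224 lower without glutamine. They were not analysed further here.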

How the results depend on the processing

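The count of called genes in HCT116 WT, 3191, was 2745 with no filter on dim genes, 3608 among genes above the median level, 3229 after quantile normalization and 3713 with a trend in the prior variance. It was 2068 with the HCT116 arrays fitted alone and 841 with its 4 arrays alone, where fewer arrays estimate the spread. Leaving out 1 array in turn gave 2054 to 2131 calls, 840 to 1088 against HCT116 Mut (1487 in full) and 893 to 1126 against DLD1 WT (1577 in full), so single calls near the threshold depend on the number of arrays. Against HCT116 Mut 430 genes were called with the HCT116 arrays fitted alone. With arrays shifted to one median 1485 genes rose and 1640 fell.

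The replicate numbers did not pair the samples: deviations of same-numbered arrays from their group means correlated at -0.037 to 0.034. A replicate block over all arrays gave 3075 calls in HCT116 WT, 1311 against HCT116 Mut and 1461 against DLD1 WT, and a block within each line 2926, 1130 and 1292.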

Other observations

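Over all tested genes of the 8 HCT116 arrays, principal component 1, with 44.7% of the variance, placed the arrays without glutamine of HCT116 WT (10.5 and 11.2) between those with glutamine of both derivatives (-28.7 to -26.1) and those without it of HCT116 Mut (43.4 and 44.4). On component 2, with 22.7%, the HCT116 WT arrays without glutamine stood apart (-33.9 and -32.8, against -3.65 and -2.92 with glutamine and 16.2 to 20.8 in HCT116 Mut).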
